A study of Mus musculus with 11 samples.

Results

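The expression of 4 steroid hormone receptor genes, Esr1 (oestrogen receptor alpha), Pgr (progesterone receptor), Nr3c1 (glucocorticoid receptor) and Nr3c2 (mineralocorticoid receptor), and of Fkbp5, which encodes a co-chaperone of steroid receptor complexes, was examined in single cells of perigonadal white adipose tissue (pgWAT). The genes were chosen by symbol, with earlier results of these data known, and make up 5 of the 23507 gene rows of the count matrix. Cells of the stromal vascular fraction, which is what remains of the tissue once the fat-filled adipocytes are removed, came from adult mice carrying the transgene Tg(Pdgfrb-eGFP) on a C57BL6/J background. In these animals the Pdgfrb promoter drives green fluorescent protein, so that fibroblast-like and mural cells can be sorted by fluorescence. All animals carried the reporter, none was treated with a hormone or drug per the labels, and all cells passed a first gate against the leukocyte protein CD45. Male cells came from mice 1, 4 and 8 (1177 cells, 4 plates) and female cells from mice 2, 3, 5 and 6/7 (2084 cells, 7 plates), where 6/7 stands for 2 animals pooled under 1 id. The plates were sorted for the reporter (PDGFRB), for the endothelial protein CD31 or for DPP4, a surface protein of a subset of adipose stem cells. Each plate held cells of 1 mouse id and each mouse id 1 sex, so that effects of plate, animal and sex cannot be told apart. Oestrous stage and circulating hormone levels were not given in the sources used here.

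Steroid receptors are transcription factors that bind a hormone which enters the cell through its membrane. Before the hormone binds, the receptor is held by heat shock protein 90 together with co-chaperones, among them the FK506 binding proteins. FKBP5 in such a complex lowers the affinity of the glucocorticoid receptor for its hormone, and Fkbp5 is itself a widely used target gene of that receptor. Pgr is a classical target gene of oestrogen receptor alpha in reproductive tissues. In fat, glucocorticoids promote the differentiation of adipocyte precursors, and the level of active hormone inside a cell also depends on enzymes. HSD11B1 regenerates active glucocorticoid with cofactor made by H6PD, whereas HSD11B2 inactivates it. The mineralocorticoid receptor binds both aldosterone and glucocorticoids.

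In the mouse build GRCm38 (mm10), Esr1 (ENSMUSG00000019768) lies on the plus strand at chr10:4611593-5005614, Pgr (ENSMUSG00000031870) on the plus strand at chr9:8899833-8968611, Nr3c2 (ENSMUSG00000031618) on the plus strand at chr8:76899442-77245012, Fkbp5 (ENSMUSG00000024222) on the minus strand at chr17:28399094-28517527, and Nr3c1 has the identifier ENSMUSG00000024431. All are protein-coding, and counts cover the exons of the whole gene. Gm10649 overlaps Nr3c2 and Gm22146 overlaps Fkbp5 on the opposite strand, and Smart-seq2 does not mark strand. Over all cells these neighbours had 181 counts beside 10450 of Nr3c2 and 55 counts beside 34004 of Fkbp5.

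The promoters of Esr1, Pgr and Fkbp5, the members whose levels differed between male and female stem cells, are printed from RefSeq (GRCm38.p6) as 250 bases before and 50 bases after the annotated start, 5′ to 3′ on the strand of the gene. Capitals mark the sequence GGTCA, a single arm of the palindromic oestrogen response element.
Esr1, first of 2 annotated starts, chr10:4611739-4612038, plus strand: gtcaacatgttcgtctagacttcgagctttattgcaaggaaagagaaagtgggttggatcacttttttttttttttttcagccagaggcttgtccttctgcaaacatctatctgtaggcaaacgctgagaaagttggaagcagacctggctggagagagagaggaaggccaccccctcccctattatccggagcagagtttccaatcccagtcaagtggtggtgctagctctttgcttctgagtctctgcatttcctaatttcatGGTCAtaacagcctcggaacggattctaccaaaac
Pgr, chr9:8899583-8899882, plus strand: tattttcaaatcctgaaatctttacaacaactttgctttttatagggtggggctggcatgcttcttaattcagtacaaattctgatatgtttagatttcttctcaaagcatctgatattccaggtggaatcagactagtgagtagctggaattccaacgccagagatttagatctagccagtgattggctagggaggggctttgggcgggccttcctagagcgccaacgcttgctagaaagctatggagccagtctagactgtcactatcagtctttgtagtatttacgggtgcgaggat
Fkbp5, chr17:28486100-28486399, minus strand: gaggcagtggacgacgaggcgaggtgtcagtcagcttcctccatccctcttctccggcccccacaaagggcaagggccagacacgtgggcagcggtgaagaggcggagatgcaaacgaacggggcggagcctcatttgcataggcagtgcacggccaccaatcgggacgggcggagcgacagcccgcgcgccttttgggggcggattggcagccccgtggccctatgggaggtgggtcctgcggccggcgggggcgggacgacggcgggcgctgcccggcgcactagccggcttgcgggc
Both strands of each window were searched for the full palindrome GGTCANNNTGACC, for its arm GGTCA, for the glucocorticoid response element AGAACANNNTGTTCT and for its arm AGAACA. Each arm is part of its palindrome, so a palindrome also counts as an arm. The only match in these 3 windows and in that of the other Esr1 start was 1 GGTCA, 15 bases downstream of the first Esr1 start. Among all 32851 RefSeq promoter windows of this length, GGTCA was present in 40.5% and AGAACA in 19.0%, while GGTCANNNTGACC was present in 0.0700% and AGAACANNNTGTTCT in 0.00913%. These windows hold the annotated starts only.

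The matrix held 3261 cells with a median of 629323 reads (range 149931 to 3548334) with plates of 201 to 379 cells. Classes were rebuilt from marker genes and are therefore called "X-like". There were 2250 adipose stem cell (ASC)-like, 560 endothelial cell (EC)-like, 137 macrophage-like, 60 pericyte-like and 41 vascular smooth muscle cell (VSMC)-like cells, 19 epithelial-like and 22 lymphatic EC-like cells, and 172 cells stayed unnamed. Reads of the fibroblast marker Pdgfra were found in 99.2% of the ASC-like cells. None of the 5 members was among the 3000 variable genes that defined the clusters. Male and female ASC-like cells fell into different clusters: most male cells were in clusters led by Hp and Sult1e1, Hmcn2, Fmod or Snx33 and Fbn1 (this last with Sox10 among its 10 leading genes), and most female cells in clusters led by Serpina3g, Postn, C1qtnf3, Adamts16 or Cnmd. Median shares of reads on mitochondrial protein-coding genes per mouse were 0.321%, 0.368% and 0.228% in males and 0.993%, 0.503%, 0.770% and 1.26% in females, so that they did not overlap between the sexes. Reads on all mitochondrial and ribosomal RNA rows took 54.2%, 26.5% and 47.6% of the ASC-like reads of males 1, 4 and 8 and 29.6%, 25.1%, 47.6% and 32.9% of those of females 2, 3, 5 and 6/7, which overlapped. The part of these shares in the detection values that follow was not tested. Summed levels of the markers of endothelial, macrophage, mural, epithelial, mesothelial, Schwann cell and adipocyte lists in ASC-like cells overlapped between the sexes, with adipocyte genes (10 of 10 in the table) at 21.8 to 97.2 CPM (counts scaled to a common total of gene reads) in males and 17.4 to 288 CPM in females.

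Each receptor had its own distribution over cell classes. Pgr was detected mainly in female ASC-like cells, Esr1 in ASC-like and epithelial-like cells, in 46.2% of the 13 pericyte-like cells of mouse 2, in 17.1% and 14.8% of macrophage-like cells of mice 1 and 5 and in few EC-like cells, Nr3c1 in every class, and Nr3c2 at the highest share in mural cells (11.4% and 15.4% of pericyte-like cells of mice 1 and 2, 15.8% of VSMC-like cells of mouse 1). Detection is given as the percentage of cells with at least 1 read after each cell was thinned to 150000 gene reads, which left out 10 shallower cells and matches the total of gene reads but not the reads outside mitochondrial and ribosomal RNA rows. In EC-like cells of mice 1, 8, 2, 5 and 6/7, Esr1 was detected in 0.568%, 0%, 3.53%, 2.17% and 5.15% of cells. In ASC-like cells it was detected in 26.2%, 32.0% and 22.4% in males 1, 4 and 8 and in 64.1%, 43.3%, 76.0% and 69.5% in females 2, 3, 5 and 6/7. Pgr was detected at this depth in 0% of EC-like cells of each mouse, with median depths before thinning of 518285 gene reads in EC-like and 669509 in ASC-like cells. Before thinning, 8.70% of the 46 EC-like cells of mouse 5 had Pgr reads. Nr3c1 was detected in 61.3% to 78.2% of ASC-like cells and in 44.8% to 55.3% of EC-like cells per mouse. Fkbp5 was detected in 2.17% to 5.15% of EC-like cells and in 9.30% to 47.7% of ASC-like cells.

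**Figure D1:**
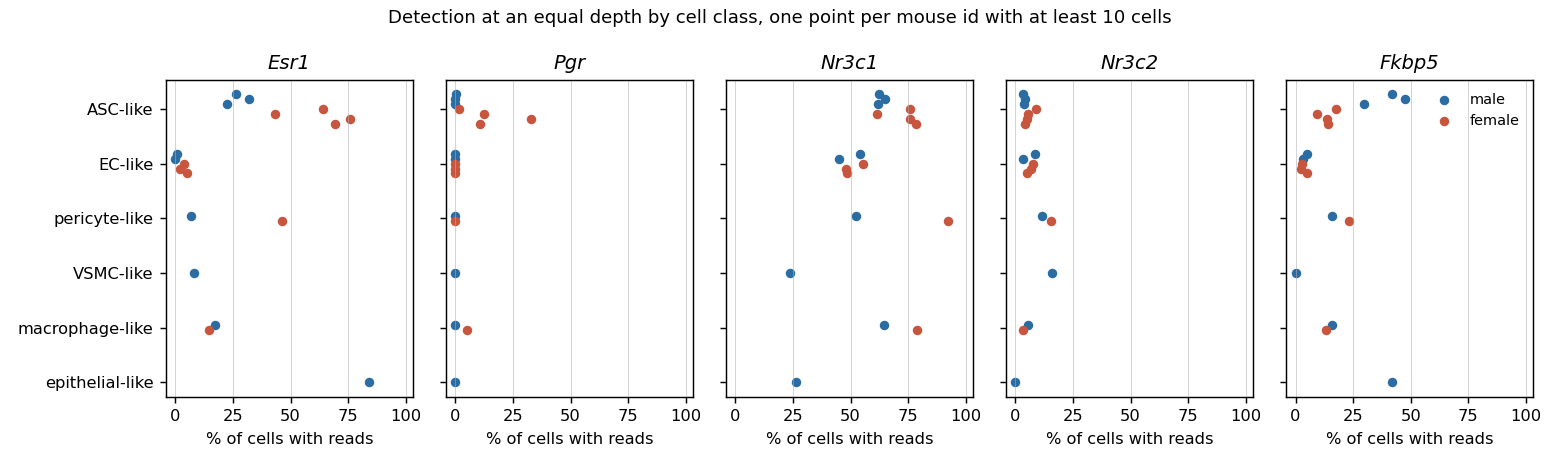
Percentage of cells with at least 1 read of each member at equal depth (150000 gene reads per cell), by cell class, 1 point per mouse id with at least 10 cells. Pgr was detected mainly in female ASC-like cells, Esr1 in at most 5.15% of EC-like cells of a mouse and in 84.2% of 19 epithelial-like cells, and Nr3c1 in every class shown.

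Among the remaining classes, which came from 1 or 2 mice each and were not tested, the epithelial-like cells had the highest Esr1 level. These 19 cells all came from male mouse 1, were led by the epididymal genes Gpx5 and Lcn5, and had Esr1 at 338 CPM in 84.2% of cells (exact 95% binomial interval 60.4% to 96.6%, counting error only). They also held Fkbp5 at 119 CPM, Nr3c1 at 11.5 CPM and no read of Pgr or Nr3c2. Macrophage-like cells of mice 1 and 5 had Nr3c1 at 88.3 and 90.9 CPM, Fkbp5 at 17.8 and 9.69 CPM and Esr1 at 3.95 and 3.56 CPM. Pgr was at 0 CPM in those of male mouse 1 and at 0.224 CPM in those of female mouse 5, where 4.92% of cells had it at equal depth. The mineralocorticoid receptor gene Nr3c2 was at 14.3 and 16.9 CPM in pericyte-like cells of mice 1 and 2 and at 12.5 CPM in VSMC-like cells of mouse 1, against 0.329 and 0.448 CPM in the macrophage-like cells. Pericyte-like cells of male mouse 1 (44 cells) and female mouse 2 (13 cells) were far apart for Esr1, at 1.45 and 43.0 CPM, for Nr3c1, at 43.2 and 183 CPM, and for Fkbp5, at 3.44 and 23.7 CPM, with 1 animal per sex. Fkbp5 was thus higher in the female than in the male sum here, opposite to its direction in ASC-like cells. This rests on few cells and on CPM without TMM factors. At equal depth Fkbp5 was detected in 15.9% of the male and 23.1% of the female pericyte-like cells.

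Esr1 was lower in male than in female ASC-like cells. Counts were summed per mouse id and scaled with TMM factors (a normalisation to the bulk of genes), and calls required both a fold change over 2.6 and an adjusted p under 0.05. Esr1 was at 27.5, 15.2 and 12.01 TMM CPM in males 1, 4 and 8 and at 57.4, 40.1, 73.5 and 62.7 TMM CPM in females 2, 3, 5 and 6/7. Every male was below every female, but the share of all tested genes that separate the sexes in this way is not given here. The means were 18.2 ± 8.17 (SD, n = 3) and 58.4 ± 13.9 (SD, n = 4), with a log2 fold change (male over female) of -1.68 (SE 0.35, adjusted p = 0.0411, edgeR quasi-likelihood F test). Of the 11820 genes tested in this comparison, 264 were called (2.23%), 183 higher in males and 81 higher in females. With library totals in place of TMM factors this split turned to 87 and 223, the median of all genes moved from 0.04 to -0.60, and Esr1 was at -2.33. The call of Esr1 was lost without mouse 2 (adjusted p = 0.0852), 4 (0.107), 8 (0.138), 5 (0.113) or 6/7 (0.123), with log2 fold changes from -1.43 to -2.11 when any 1 mouse was left out, and also with a filter of at least 10 counts (0.0639).

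Among ASC-like cells, Pgr was nearly confined to those of females in these libraries. Its summed counts were 2, 0 and 0 in males 1, 4 and 8 and 492, 1933, 1227 and 1814 in females 2, 3, 5 and 6/7, which was 0.649, 9.42, 18.2 and 6.86 TMM CPM in the females. The female mice thus spanned a wide range, with mouse 2 lowest although it gave the most ASC-like cells (747). Mouse 2 was low on both of its plates labelled PDGFRB-positive, at 0.491 CPM on the DPP4-positive and 1.18 CPM on the DPP4-negative plate. The cell names of the DPP4-positive plate begin like those of the PDGFRB-negative plates, so its gate is uncertain. The gene passed the filter on low counts only through the females, so its call (adjusted p = 0.00712) is given as a description only. Both male reads came from mouse 1. At equal depth Pgr was detected in 1.61%, 12.2%, 32.7% and 10.9% of female and in 0.410%, 0% and 0% of male cells. For the 363 cells of male mouse 4 the exact upper limit was 1.01%.

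Nr3c1, the glucocorticoid receptor gene, was the most highly expressed member per exon length and did not pass the test between the sexes. It was at 79.7, 39.1 and 48.5 TMM CPM in males 1, 4 and 8 and at 57.1, 51.7, 48.9 and 69.8 TMM CPM in females 2, 3, 5 and 6/7, and the sexes overlapped. The log2 fold change was -0.03 (SE 0.29, adjusted p = 0.968), and its sign was opposite without mouse 4, 8 or 6/7. Nr3c2 was sparse, at 4.56, 1.77 and 1.11 TMM CPM in males and 3.43, 2.92, 1.14 and 1.56 TMM CPM in females. These ranges overlapped too (log2 fold change 0.13, SE 0.62, adjusted p = 0.928), and the sign turned with library totals. In CPM per kilobase of exon, which allows levels of different genes to be compared, mean female levels ran from Nr3c1 (9.23) through Esr1 (5.19), Pgr (1.19) and Fkbp5 (0.793) to Nr3c2 (0.445). Male levels ran from Nr3c1 (5.42) through Fkbp5 (3.32), Esr1 (1.03) and Nr3c2 (0.288) to Pgr (0.000362). Female mice overlapped in their Pgr, Fkbp5 and Nr3c2 levels, and male mice overlapped in Nr3c1 and Fkbp5.

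Fkbp5 was higher in male ASC-like cells, opposite in direction to Esr1 and Pgr. It was at 58.5, 28.8 and 39.6 TMM CPM in males 1, 4 and 8 and at 8.47, 6.92, 2.63 and 5.47 TMM CPM in females 2, 3, 5 and 6/7. The lowest male was thus above the highest female, again without the share of all tested genes of which this holds. Means were 42.3 ± 15.03 (SD, n = 3) and 5.87 ± 2.49 (SD, n = 4), with a log2 fold change of 2.85 (SE 0.41, adjusted p = 0.00738). Fkbp5 was called in each of 7 fits without 1 mouse (2.53 to 3.07) and each of 8 other settings (2.06 with library totals to 3.06). More cells held its reads as well, 41.8%, 47.7% and 29.8% in males against 17.7%, 9.30%, 13.5% and 14.04% in females at equal total gene reads. Relative to reads outside mitochondrial and ribosomal RNA rows, Fkbp5 was at 78.8, 46.9 and 45.1 CPM in males and 15.4, 12.5, 4.96 and 10.8 CPM in females. Among cells with Fkbp5 reads the median was 6.57 CPM in the 495 male and 5.63 CPM in the 350 female cells. The plates with the gate label PDGFRBpos held all or nearly all ASC-like cells of mice 1, 4, 3 and 5. Their values therefore come from the same counts as the test above and add no separate evidence. Fkbp5 was at 36.3 and 34.5 CPM on the plates of males 1 and 4 and at 9.39 and 2.598 CPM on those of females 3 and 5. On those plates Esr1 was at 17.1 and 18.2 CPM in males and 54.5 and 72.6 CPM in females, and Nr3c1 at 47.4 and 46.9 CPM and 70.2 and 48.4 CPM. Relative to reads outside mitochondrial and ribosomal RNA rows, the plates of mice 1 and 4 against 3 and 5 were at 79.4 and 46.9 against 12.5 and 4.96 CPM for Fkbp5 and at 37.4 and 24.7 against 72.7 and 138.7 CPM for Esr1. For Nr3c1 they were at 103.6 and 63.8 against 93.8 and 92.3 CPM, so that the sexes overlapped on this scale.

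**Figure D2:**
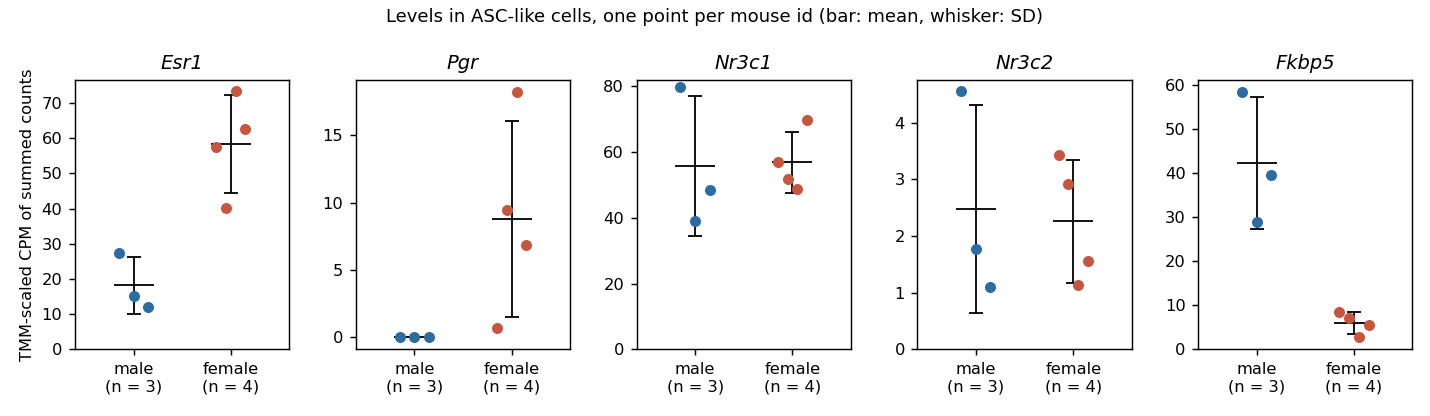
TMM CPM of each member in ASC-like cells, 1 point per mouse id (3 male, 4 female), with the mean and SD. Males lie below all females for Esr1 and Pgr and above all females for Fkbp5, while the sexes overlap for Nr3c1 and Nr3c2. The share of all genes that separate the sexes is not given.

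Of the 3 genes for enzymes that set the level of active glucocorticoid, Hsd11b1 and H6pd were called higher in male ASC-like cells. This comparison called 2.23% of all genes tested. Hsd11b1 was at 165, 184 and 392 TMM CPM in males and at 70.8, 99.6, 40.9 and 63.5 TMM CPM in females (log2 fold change 1.85, SE 0.39, adjusted p = 0.0424). H6pd, which makes its cofactor, was at 253, 246 and 321 TMM CPM in males and at 76.5, 135, 76.9 and 53.6 TMM CPM in females (1.68, SE 0.33, adjusted p = 0.033). Hsd11b2, which encodes the inactivating enzyme, went the opposite way, at 1.41, 0.159 and 1.85 TMM CPM in males and 16.97, 9.39, 13.9 and 26.6 TMM CPM in females (-3.89, SE 0.76, adjusted p = 0.0322). Like Pgr, Hsd11b2 passed the filter on low counts only through the females, so its call is given as a description only. Males and females did not overlap for any of the 3 genes, without the share of all genes of which this holds. Each was called in 2 of 7 fits without 1 mouse, Hsd11b1 and H6pd were not called with library totals (1.08 and 1.00), and none was called with a filter of at least 10 counts.

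None of the 15 glucocorticoid response genes other than Fkbp5 was called between the sexes, although the fold change of all 15 was above 0. Their median log2 fold change was 0.38, beside 0.04 over all genes, and with library totals it was -0.15, with 6 of 15 above 0, beside -0.60. Without 1 mouse it ran from 0.18 (without mouse 4, 9 of 14 above 0) to 0.74 (without mouse 2), with 0.58 without mouse 1 and 0.56 without mouse 8. DESeq2 called 2 of these genes and the likelihood ratio test 1. Hif3a was at 6.74 ± 6.62 in males and 1.03 ± 0.905 TMM CPM in females (2.70, adjusted p = 0.18), and Ddit4, an inhibitor of mTORC1 signalling, at 4.50 ± 1.43 and 0.962 ± 0.692 TMM CPM (2.22, adjusted p = 0.104). The 7 tested of 10 oestrogen response genes had no call and a median of 0.23, which was -0.32 with library totals and 0.056 to 0.40 without 1 mouse (lowest without mouse 4, highest without mouse 1). DESeq2 called 3 of them, and the likelihood ratio test and library totals 1 each. Greb1, a co-factor of oestrogen receptor alpha, was at 1.99 ± 1.55 in males and 10.9 ± 10.1 TMM CPM in females (-2.45, adjusted p = 0.203), and Igf1, a growth factor, at 194 ± 67.7 and 70.1 ± 26.3 TMM CPM (1.47, adjusted p = 0.0798). Of 6 progesterone response genes 3 were in the matrix and none passed the filter.

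Among the proteins that work with the receptors, no gene was called between the sexes in ASC-like cells. All 13 chaperones were tested, with 2 above 0 and a median of -0.20 (none above 0 and -0.75 with library totals). Ppid, a cyclophilin that competes with FKBP5 for heat shock protein 90, was at 13.4 ± 2.90 in males and 25.4 ± 7.61 TMM CPM in females (-0.92, adjusted p = 0.159). The related Fkbp4, at 36.9 ± 12.9 and 51.1 ± 9.85 TMM CPM, had a log2 fold change of -0.47 (adjusted p = 0.405), and Dnaja1 had the same size of change (adjusted p = 0.337). Of 14 coregulators 12 were tested, with 9 above 0 and a median of 0.41, which was -0.41 with library totals (4 above 0) and -0.02 without mouse 1 (6 above 0). The corepressor Nrip1 was at 33.8 ± 5.10 in males and 13.99 ± 1.18 TMM CPM in females, and its log2 fold change of 1.27 (adjusted p = 0.0224) was under the fold limit. Of 8 other steroid receptors 4 were tested, with Esrra at 1.25 (adjusted p = 0.253) and Pgrmc2 at 0.52 (adjusted p = 0.707).

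ASC-like cells were divided into 3 subtypes by marker scores within each mouse, ASC1a (801 cells), ASC1b (684) and ASC2 (765), of which 479 cells (21.3%) lay near a boundary. The scores were relative to cells of the same mouse, with 92, 67 and 85 cells in mouse 1 and 120, 122 and 121 in mouse 4. In the study's clusters, stem cells of mouse 1 lay mostly in the male ASC2 cluster and those of mouse 4 in the male ASC1a cluster. A subtype name may thus cover different cells in different mice. No member was called between subtypes, with the mouse as a block over 21 sums. For ASC2 against ASC1a, where 384 of 11137 genes were called (3.45%), the log2 fold changes were 0.11 (SE 0.16) for Esr1, 0.86 (SE 0.59) for Pgr, 0.42 (SE 0.15) for Nr3c1, -0.34 (SE 0.78) for Nr3c2 and -0.20 (SE 0.29) for Fkbp5. The lowest adjusted p was that of Nr3c1 (0.0993). For ASC1b against ASC1a, where 0.332% of genes were called, they were -0.21, 1.00, 0.07, 0.32 and 0.21 in the same order, with adjusted p-values from 0.58 to 0.942. On the plates of mouse 2 labelled as sorted for and against DPP4, the surface protein of ASC2 cells, Esr1 was at 68.5 and 78.3 CPM, Nr3c1 at 66.5 and 79.7 CPM and Nr3c2 at 4.46 and 4.28 CPM. Among the lists, Hsd11b1 (57.7 against 184 TMM CPM, log2 fold change -1.97, adjusted p = 7.94e-05) and the chemokine gene Cxcl12 (159 ± 74.0 against 455 ± 202 TMM CPM, -1.61, adjusted p = 3.4e-06) were lower in ASC2 than in ASC1a.

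**Figure D3:**
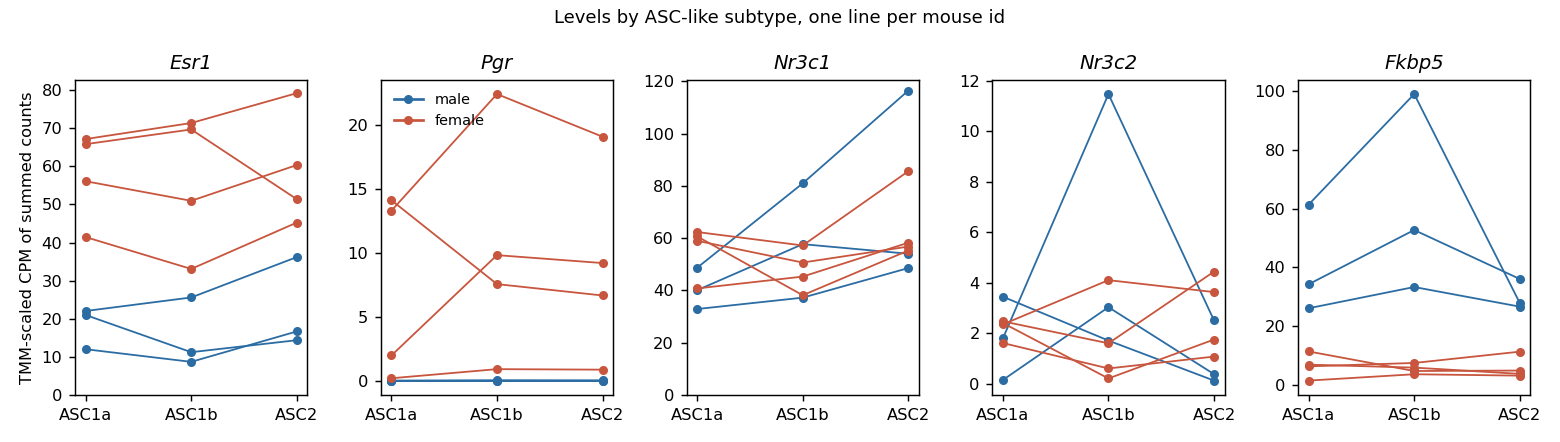
TMM CPM of each member in ASC1a-, ASC1b- and ASC2-like cells, 1 point per mouse id, with the 3 sums of a mouse joined by a line. Values were scaled over all 21 sums. In each subtype the female lines lie above the male lines for Esr1 and Pgr and below them for Fkbp5, and no member was called between subtypes. The share of all genes that separate the sexes is not given.

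Within subtypes the sex differences of Esr1 and Fkbp5 had the same direction in all 3, and passed the test in 1 subtype each. Fkbp5 in ASC1b was at 97.9, 31.6 and 51.8 TMM CPM in males 1, 4 and 8 and at 7.47, 4.52, 3.51 and 5.77 TMM CPM in females 2, 3, 5 and 6/7 (log2 fold change 3.50, SE 0.45, adjusted p = 0.00331, 1.73% of 9147 genes called). It was called there in every fit without 1 mouse. In ASC1a it was at 62.7, 25.8 and 33.8 against 6.33, 11.3, 1.40 and 6.91 TMM CPM (2.65, SE 0.58, adjusted p = 0.0582, 1.32% of 9238 genes called). In ASC2 it was at 28.1, 26.2 and 36.0 against 11.5, 4.77, 3.09 and 3.70 TMM CPM (2.38, SE 0.47, adjusted p = 0.0599, 0.55% of 9095 genes called). The male and female mice did not overlap in any subtype, again without the share of all genes of which this holds.

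Esr1 in ASC1a was at 22.5, 20.8 and 11.8 TMM CPM in males and at 57.2, 41.4, 69.1 and 66.9 TMM CPM in females (-1.67, SE 0.35, adjusted p = 0.0435), and this call was kept in 1 of 7 fits without 1 mouse. In ASC1b it was at 25.3, 10.7 and 8.53 against 51.6, 32.3, 71.0 and 69.5 TMM CPM (-1.92, SE 0.46, adjusted p = 0.071). In ASC2 male mouse 1 reached 36.5 TMM CPM, beside 14.2 and 16.6 in males 4 and 8 and 61.6, 45.1, 80.2 and 52.0 in females (-1.41, SE 0.39, adjusted p = 0.158). It was called without mouse 1 (-2.01, adjusted p = 0.0252) and with library totals, the likelihood ratio test or DESeq2. Leaving out the cluster that had Sox10 among its leading genes, 100 cells of which 89 were from mouse 1, left too few ASC2-like cells of mouse 1 for a sum, so that this setting (-2.02, adjusted p = 0.0285) also lacked mouse 1. Schwann cell markers, to which Sox10 belongs, summed to 13.9 CPM in ASC-like cells of mouse 1 and at most 2.84 CPM in a female, and their part in the result was not tested.

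Pgr was at 0 reads in ASC1a of all males and at 0.186, 14.1, 13.7 and 2.00 TMM CPM in females 2, 3, 5 and 6/7. In ASC2 it was at 0.873, 6.64, 19.3 and 9.31 TMM CPM in these females, and neither Pgr nor Nr3c2 passed the filter for a test within subtypes. Nr3c1 did not pass the test in any subtype (-0.48, 0.27 and 0.18 in ASC1a, ASC1b and ASC2), and its highest sum was ASC2 of male mouse 1, at 117 TMM CPM. The sex effect of no member differed between subtypes in the test of that difference. Because subtypes were scored within each mouse, this test may compare unlike cells. From ASC1a to ASC2 the effect moved by 0.16 (SE 0.31) for Esr1, -0.15 (SE 0.58) for Fkbp5 and 0.57 (SE 0.26) for Nr3c1, in a fit that called 0.0449% of genes. From ASC1a to ASC1b it moved by -0.34, 0.69 (SE 0.57) and 0.70 (SE 0.26), in a fit that called 0 genes (705 at an unadjusted p below 0.05, 19 by the likelihood ratio test and 21 by DESeq2). Among list genes, Nrip1 (45.0 ± 14.7 in males, 14.1 ± 2.03 TMM CPM in females, log2 fold change 1.67, adjusted p = 0.0293), Igf1 (2.28, adjusted p = 0.026), Hsd11b1 (1.94, adjusted p = 0.0303) and H6pd (1.67, adjusted p = 0.0337) were called higher in male ASC1a cells, and each was lost with library totals and with a filter of at least 10 counts. Without 1 mouse these calls were kept in 2 of 7 fits for Nrip1 and Igf1, 3 for Hsd11b1 and 1 for H6pd.

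**Figure D4:**
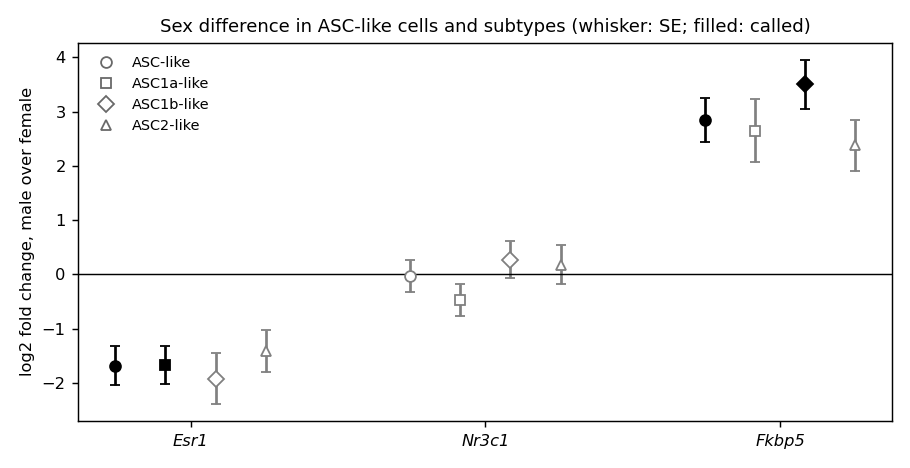
Log2 fold change (male over female, with SE) of the members tested in all ASC-like cells and in each subtype. Esr1 lies below 0 and Fkbp5 above 0 in each, with Fkbp5 between 2.38 and 3.50 in the subtypes.

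ASC-like cells had more Esr1 and Fkbp5 than EC-like cells of the same mice. The comparison used mice 1, 8, 2, 5 and 6/7, each with 10 or more cells of either class, and blocked by mouse. Esr1 in EC-like cells was at 0.138 and 0 TMM CPM in males 1 and 8 and at 2.42, 0.430 and 3.24 TMM CPM in females 2, 5 and 6/7, below the 11.99 to 69.2 TMM CPM of ASC-like cells in every mouse. The log2 fold change was 6.07 (SE 0.81, adjusted p = 0.00119), in a comparison that called 22.7% of 12203 genes. Esr1 had at most 571 counts in an EC-like sum, so it passed the filter only through ASC-like cells and its call is given as a description. Fkbp5 was at 3.31, 0.174, 4.12, 0.258 and 0.762 TMM CPM in EC-like and 55.5, 39.6, 8.12, 2.47 and 5.28 TMM CPM in ASC-like cells of mice 1, 8, 2, 5 and 6/7. Its log2 fold change was 3.50 (SE 0.93, adjusted p = 0.0271), and it too passed the filter only with its ASC-like sums. The call was lost without mouse 1 (0.111), 5 (0.0676) or 6/7 (0.0703). In mouse 2 the classes differed least.

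The other members did not pass the limits of this test. Nr3c2 was at 16.1, 1.30, 10.1, 5.76 and 4.46 TMM CPM in EC-like cells and 4.33, 1.11, 3.28, 1.08 and 1.51 TMM CPM in ASC-like cells of mice 1, 8, 2, 5 and 6/7, higher in EC-like cells of all 5 mice (log2 fold change -1.57, SE 0.55, adjusted p = 0.073). Nr3c1 was at 31.8 to 108 TMM CPM in EC-like and 46.0 to 75.7 TMM CPM in ASC-like cells (-0.38, SE 0.28, adjusted p = 0.373), and Pgr was at 6.40 (SE 1.93, adjusted p = 0.0515), close to the limit and under it in 7 of 9 other settings, with at most 6 counts in an EC-like sum. Hsd11b1 (9.52), Hsd11b2 (9.40) and H6pd (4.54) were all called higher in ASC-like cells, Hsd11b2 in 1 of 5 fits without 1 mouse (7.77 to 11.5, lost without mouse 8, 2, 5 or 6/7). None of these 3 genes passed the filter on EC-like sums alone, so their calls are given as a description. Of the 15 glucocorticoid response genes 4 were called higher in ASC-like cells (Mt1 5.19, Mt2 4.84, Errfi1 4.19, Cebpd 2.88) and 2 in EC-like cells (Ddit4 -3.61, Sgk1 -2.41). Of the oestrogen response genes, C3 (7.73), Greb1 (5.90) and Igf1 (4.78) were called higher in ASC-like and Ccnd1 (-2.90) and Cxcl12 (-2.49) in EC-like cells. On EC-like sums alone 10 of the 15 glucocorticoid and 6 of the 7 oestrogen response genes in the matrix passed the filter. The others, which are not named here, passed it only with ASC-like sums, so a call of any of them is a description only. The coregulators Gata2 (-2.12) and Ncor1 (-1.42) were called higher in EC-like cells.

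Between male and female EC-like cells only Nr3c1 and Nr3c2 of the members passed the filter. Nr3c1 was at 115 and 33.9 TMM CPM in males 1 and 8 and at 96.2, 104.4 and 79.1 TMM CPM in females 2, 5 and 6/7 (log2 fold change -0.32, SE 0.57, adjusted p = 0.902). Nr3c2 was at 17.1 and 1.39 TMM CPM in males and 10.8, 6.13 and 4.63 TMM CPM in females (0.37, SE 1.18, adjusted p = 0.953). The 2 males lay on opposite sides of the females for both genes, and male mouse 8 had 29 EC-like cells. With 2 males this fit called 0.0494% of 8103 genes (4 genes, with 612 at an unadjusted p below 0.05).

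In single ASC-like cells, reads of a member were carried by part of the cells. Esr1 reads were found in 1127 of 1482 female and 336 of 768 male cells, with a median of 56.4 CPM in female and 5.07 CPM in male cells that had any. The 10% of cells with the most Esr1 held 48.1% of its reads in females and 85.4% in males. For Fkbp5 these shares were 96.2% in females and 73.3% in males. Nr3c1 reads were found in 1247 female and 633 male cells, Nr3c2 reads in 163 and 59, and Pgr reads in 175 and 2. At equal depth, 115 of 1480 female cells had none of the 5 members, 527 had 1, 636 had 2, 183 had 3, 19 had 4 and none had all 5. Of 768 male cells 117 had none, 318 had 1, 262 had 2, 69 had 3 and 2 had 4.

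Esr1 and Pgr were detected in the same cells more often than their separate frequencies within each mouse would give. Both were found in 93 of 2248 ASC-like cells, beside 73.5 from the frequencies, with an odds ratio over mice of 2.59. Pgr was detected in 2.09% of Esr1-positive and 0.746% of Esr1-negative cells of mouse 2, 20.1% and 6.15% of mouse 3, 35.4% and 24.0% of mouse 5, and 12.6% and 6.90% of mouse 6/7. The direction was thus the same in the 4 female ids, with odds ratios of 1.66 to 3.75. Cells with Pgr reads also had more genes detected, with medians of 6737 against 5875 in mouse 2 and 6508 against 6046 in mouse 6/7. Among the cells of each mouse with more genes than its median the odds ratio was 1.85 (above 1 in 3 of 4 mice), and among those with fewer it was 3.89. These are descriptions of detection in sparse counts, and cells of a mouse share plates and depth.

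For the other 9 pairs the odds ratios lay between 0.543, for Pgr and Nr3c2 with 4 cells, and 1.23, for Nr3c1 and Nr3c2. Nr3c1 and Fkbp5, receptor gene and target gene, were detected together in 371 cells beside 367.4 from the separate frequencies (odds ratio 1.05, and 1.41 with at least 5 reads). Esr1 and Fkbp5 were found together in 220 cells beside 229.7 (0.887), and Esr1 and Nr3c1 in 811 cells beside 806.9 (1.04).

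**Figure D5:**
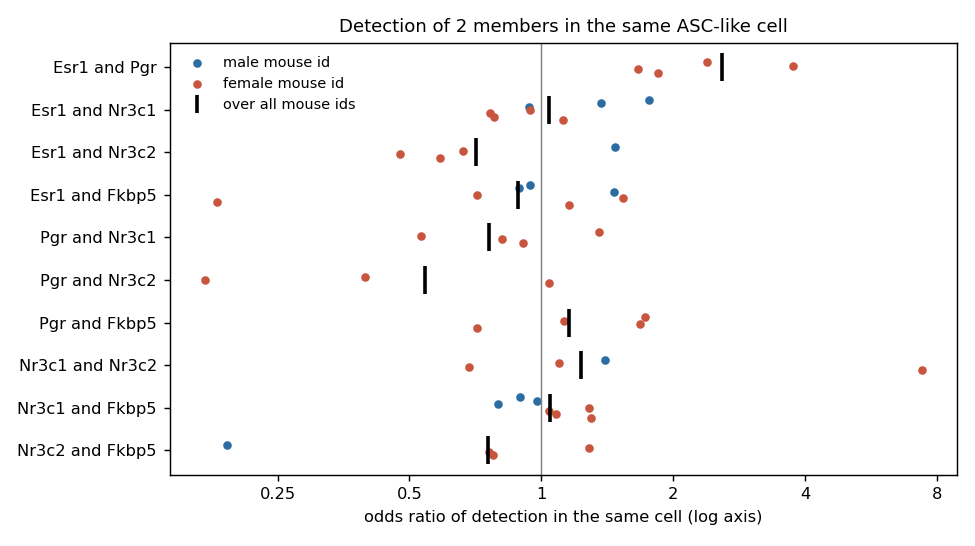
Odds ratios of co-detection within mice for the 10 pairs of members in 2248 ASC-like cells at equal depth, on a log axis, with points for single mice. The pair of Esr1 and Pgr has the highest value, 2.59, and the other pairs lie between 0.543 and 1.23.

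The genes whose levels were most like those of each member over 18 sums of class and mouse were ranked by Pearson's r of log2 CPM among 12854 genes, as a description over sums that share libraries. They were Chd9 (0.92), Gstm5 (0.92) and Slc4a4 (0.89) for Esr1, Siah3 (0.99), P4ha3 (0.96) and Tmem215 (0.94) for Pgr, and Rtp4 (0.94), Dhx35 (0.93) and Pds5a (0.93) for Nr3c1. For Fkbp5 they were Cp (0.86), Slc6a13 (0.82) and Gm37416 (0.82), and for Nr3c2 Gm49395 (0.88), Hrct1 (0.87) and 4930562F07Rik (0.87). Between members, r was 0.66 for Esr1 and Fkbp5 and 0.51 for Esr1 and Pgr. With Spearman's rank correlation in its place 1 of the 3 genes was shared for Esr1, 2 for Fkbp5 and none for the other members. Over the 21 sums of ASC subtypes and mice alone, the genes most like Esr1 were Set, Rbm8a and Swi5 (0.96 each), those most like Pgr were Ptpn5 (0.96), Siah3 (0.92) and Ngfr (0.92), and those most like Nr3c1 were Gm7001 (0.89), Gm48309 (0.88) and Dnm1 (0.87). For Nr3c2 they were Nemp2 (0.78), Mnd1 (0.71) and Smim1 (0.70), and for Fkbp5 Prrg3 (0.92), Lamb2 (0.88) and Col4a5 (0.87).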

How the data were processed

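Smart-seq2 libraries without molecular identifiers were made from single sorted cells on 11 plates. The authors aligned reads with STAR to mm10 with spike-in sequences, quantified genes with Salmon, imported the values with tximport and removed cells by reads, genes, mitochondrial and spike-in shares and mixed identity before deposit; tool versions are not given in the sources used here. Raw read counts, in whole numbers and without normalization, were deposited for each cell, and all cell columns were used (0 left out). Of 23507 gene rows, 23461 matched GENCODE vM21; 72 spike-in rows were left out. CPM are relative to the gene reads of a sum, and intervals and floors cover counting error only.

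Cells were clustered in Seurat 5.3.0 (scale factor 500000, 3000 variable genes, 14 components, resolution 1.1; 18 clusters) and clusters named from markers. 2 clusters stayed unnamed, 1 led by adipocyte and haemoglobin genes and 1 with a high mitochondrial share; the limit of 2 adipocyte genes among the 10 leading genes was set after the clusters were seen. No doublet caller was run on sorted wells. Subtypes are ranges of a score taken within each mouse. Counts were summed per mouse id (at least 10 cells), and genes whose sums exceeded 600 counts in 2 or more mice entered the two-sided quasi-likelihood F test of edgeR 4.0.16 with TMM factors and Benjamini-Hochberg adjustment, the limits being those of the study, whose likelihood ratio test was an alternative, as was DESeq2 1.42.0. Comparisons of subtypes and of classes had the mouse as a block. The labels do not say which plates share a day or litter, and p-values measure the spread between these mouse ids. The test was first tested on simulated data. R 4.3.3, Python 3.11.15 and scipy 1.17.1 were used. Promoters and motifs came from RefSeq windows. The members and lists were chosen with earlier results of these data known. From the lists, every called gene was named or, where a list had none, the 2 with the largest change between the sexes in ASC-like cells; some list genes are not reported here, and Fkbp4 was named after its values were seen. The 3 genes of highest correlation were named for each member.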

Additional observations from a re-analysis of the deposited data

Results flagged for a closer look

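Within groups of 4 female mice, 20 sets of values were examined for a mouse whose gap to the nearest other was large for the range of the group, and 3 stood out. Chance marks about 1 in 20 such groups. In ASC1a-like cells, female mouse 5 was the lowest for Nr3c1, at 41.9 TMM CPM beside 60.1, 60.6 and 63.4 in the other females, and for Nr3c2, at 1.67 TMM CPM beside 2.41, 2.48 and 2.45. In ASC2-like cells, female mouse 6/7 was the highest for Nr3c1, at 86.6 TMM CPM beside 57.9, 55.1 and 58.9. None of the 3 belonged to a member that was called between the sexes.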

How the results depend on the processing

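Fkbp5 was called in all ASC-like cells and in ASC1b in every alternative run. The number of members called changed in the following. In all ASC-like cells it was 3, among them Pgr, whose call is a description only. It was 2 with a filter of at least 10 counts, where Esr1 lost its call (2 to 3 without 1 mouse). In ASC1a it was 1, and became 0 with a filter of at least 10 counts or with classes assigned cell by cell, 2 with the likelihood ratio test or DESeq2, and 0 to 2 without 1 mouse. In ASC1b it was 1, and 2 with library totals, the filter of 10 counts, the likelihood ratio test or DESeq2 (1 to 2 without 1 mouse). With the filter of 10 counts the added member was Pgr, as a description only. In ASC2 it was 0, and 1 with library totals, without mixed cells or without the cluster with Sox10 (an alternative chosen after seeing the data, which here also drops the sums of mouse 1), 2 with the likelihood ratio test or DESeq2, and 0 to 1 without 1 mouse. Between ASC-like and EC-like cells it was 2, Esr1 and Fkbp5, which both passed the filter only with ASC-like sums. It was 3 with RLE factors, cell-by-cell classes, no mouse block or without mixed cells. It was 4 with library totals, the likelihood ratio test or DESeq2 (1 to 4 without 1 mouse). Of all genes tested, the main runs called 2.23%, 1.32%, 1.73% and 0.55% in ASC-like, ASC1a, ASC1b and ASC2 cells, and 22.7% between the classes. The cause was not tested. Called genes over all genes ranged without 1 mouse from 92 to 343 between the sexes in ASC-like cells, 0 to 679 in EC-like cells (679 without mouse 1, which leaves 1 male, assumed to vary like the females), and 34 to 183, 49 to 132 and 16 to 92 in ASC1a, ASC1b and ASC2. Under the other settings these counts ranged over 174 to 592, 0 to 104 (DESeq2), 76 to 395, 109 to 426 and 17 to 262. Between subtypes they ranged over 280 to 382 and 188 to 511 (ASC2 against ASC1a) and 18 to 37 and 1 to 113 (ASC1b against ASC1a), and between classes over 2080 to 2728 and 2711 to 3733. For the differences of sex effects they were 0 to 11 and 0 to 55 (ASC2) and 0 to 2 and 0 to 21 (ASC1b).

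The log2 fold changes whose sign turned were ones that were not called. Between the sexes with library totals, Nr3c2 was at -0.63 in ASC-like and -0.42 in EC-like cells, Nr3c1 at -0.59 in ASC1b and -0.55 in ASC2, and Pgrmc2 at -0.34. Without 1 mouse, Nr3c1 ranged from -0.38 to 0.18 in ASC-like cells, -1.48 to 0.30 in EC-like cells, -0.076 to 0.54 in ASC1b and -0.40 to 0.42 in ASC2, Nr3c2 from -0.071 to 0.50 in ASC-like cells and Pgrmc2 from -1.01 to 0.95. Between subtypes without 1 mouse, Nr3c2 ranged from -0.62 to 0.18 and Fkbp5 from -0.40 to 0.021 in ASC2 against ASC1a, and Nr3c1 from -0.024 to 0.20 and Nr3c2 from -0.34 to 0.76 in ASC1b against ASC1a. The differences of sex effects (ASC2 minus ASC1a) ranged from -0.056 to 0.55 for Esr1, -2.69 to 0.76 for Nr3c2 and -0.62 to 0.23 for Fkbp5. With classes assigned cell by cell, Nr3c1 was at -0.045 between the sexes in ASC2 and -0.037 in ASC1b against ASC1a, and the Esr1 difference of sex effects was -0.045. Without the cluster with Sox10, Nr3c1 was at -0.37 between the sexes in ASC2 and -0.025 in ASC1b against ASC1a, Nr3c2 at -0.25 in the latter, and the differences of sex effects were -0.073 for Esr1 and 0.27 for Fkbp5. Of the log2 fold changes under alternatives, 950 kept direction and side of the threshold, 79 lost and 38 gained a call, and 34 turned. A setting of at least 20 cells per sum left out no sum. No paired analysis was possible because each mouse id belongs to 1 sex, so this holds for the comparisons of the sexes; those of subtypes and classes were paired within mice. Nr3c2 and Pgr, with few reads per cell, are limited by depth.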
